A study of Mus musculus with 311 samples.

Results

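The livers described here are those in which Cel, the gene for the bile salt-stimulated lipase of pancreatic acinar cells, stood at a log10 ratio of 0.5 or more over the pool, a 3.16-fold excess. There were 11 such livers among 311, and they are called Cel-high livers below and set against the 300 other livers. The members were therefore chosen by a measured value, and the labels give no groups. Every liver came from an F2 mouse, male or female, of the cross between C57BL/6J and C3H/HeJ with ApoE null on both sides. ApoE null means that the gene for apolipoprotein E is inactivated, so that cholesterol-rich lipoproteins build up in the blood. All animals ate a high-fat Western diet between 8 and 24 weeks of age, so genotype at ApoE, diet and age were shared by both groups. Each F2 animal carries its own mixture of the parental genomes, and 1 array was run per animal. RNA of the liver (Cy3) was read against a reference (Cy5) mixed in equal shares from all livers, the Cel-high ones included. A value of 0 is thus the level of that mixture and a value of 1 is 10-fold above it. A ratio gives no absolute level, so levels are compared between livers for the same gene and not between genes.

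Acinar cells of the exocrine pancreas make digestive enzymes, store them in granules and release them into a branching duct system that opens into the duodenum. They express the enzymes under the control of PTF1, a complex built around the transcription factor Ptf1a, which binds an E-box together with a nearby TC-box in the promoters of acinar genes. Hepatocytes are not a main source of these enzymes. The pancreas also holds duct cells and hormone-secreting islets and lies against the duodenum, the stomach and fat.

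The promoters of Cel, which chose the livers, and of Prss1 and Prss2, which differed most, are shown because the acinar genes moved together in these livers. Each is the 250 bases before the gene's start in RefSeq on build GRCm38.p6, read 5′ to 3′ along the gene's own strand. Capitals mark the E-box CACCTG and the TC-box TTTCCC on either strand (CAGGTG and GGGAAA in the other reading). Cel lies at chr2:28563404-28563653 on the minus strand, Prss1 at chr6:41458680-41458929 and Prss2 at chr6:41521526-41521775, both on the plus strand.
Cel: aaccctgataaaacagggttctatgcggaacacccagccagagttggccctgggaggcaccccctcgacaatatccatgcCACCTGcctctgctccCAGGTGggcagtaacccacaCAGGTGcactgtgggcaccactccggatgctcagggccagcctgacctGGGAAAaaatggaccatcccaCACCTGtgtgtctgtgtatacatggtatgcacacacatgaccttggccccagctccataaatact
Prss1: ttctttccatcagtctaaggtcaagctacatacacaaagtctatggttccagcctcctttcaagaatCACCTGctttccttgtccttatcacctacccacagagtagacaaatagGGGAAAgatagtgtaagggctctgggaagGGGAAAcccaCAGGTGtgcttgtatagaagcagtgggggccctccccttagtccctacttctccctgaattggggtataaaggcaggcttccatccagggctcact
Prss2: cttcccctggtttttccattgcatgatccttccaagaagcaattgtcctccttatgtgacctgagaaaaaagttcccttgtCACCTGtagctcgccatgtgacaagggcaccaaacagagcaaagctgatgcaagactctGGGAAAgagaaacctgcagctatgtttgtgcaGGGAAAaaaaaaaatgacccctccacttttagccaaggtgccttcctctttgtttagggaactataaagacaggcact
The Cel window held 4 E-boxes and 1 TC-box, that of Prss1 held 2 of each, and that of Prss2 held 1 E-box and 2 TC-boxes. Of the 23 acinar genes that were higher in the Cel-high livers or defined them, 19 had a RefSeq promoter window in the table used. The E-box was found in 13 of the 19 windows, against 17.2% of 32851 windows over all genes. The TC-box was found in 8 of the 19, against 21.9%, and both in 5 of the 19 (Cel, Cela2a, Prss1, Prss2 and Reg3d), against 3.61%. The 2 motifs do not overlap in letters, and a match is a description of the sequence only.

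Cel itself, which chose the livers, is described without a test. In the 11 Cel-high livers its log10 ratio was 0.535 at the lowest, 1.1 at the median and 1.25 at the highest, which is 3.43-, 12.5- and 17.8-fold over the pool. The mean was 0.965 ± 0.254 (SD, n = 11). In the other livers the ratio ran from -1.54 through a median of -1.13 to 0.392, with a mean of -1.11 ± 0.22 (SD, n = 300). The 2 means lay 118-fold apart, and the median of the other livers was 0.0742 of the pool. The pool contains the Cel-high livers, and these 11 livers carried 78.8% of the summed linear Cel ratio of all 311. How far the make-up of the pool sets the low Cel values of most livers was not tested. An equal mixture should match the mean linear ratio of the livers. That mean was 0.49 of the pool for Prss1, 0.443 for Prss2 and 0.371 for Iapp. It was 0.499 for Ctrl, 0.497 for Reg1, 0.49 for Pnliprp1 and 0.312 for Cela2a, but 0.789 for Cpb1 and 0.971 for Pla2g1b. Why these means differ from 1 was not tested. The liver just inside the threshold was F2 157, at 0.535. Just outside it were F2 123 at 0.392, F2 169 at 0.366 and F2 168 at 0.164. Of the other livers, 289 lay below -0.8 and 11 lay between -0.8 and the threshold, so that the separation was wide but not empty.

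**Figure D1:**
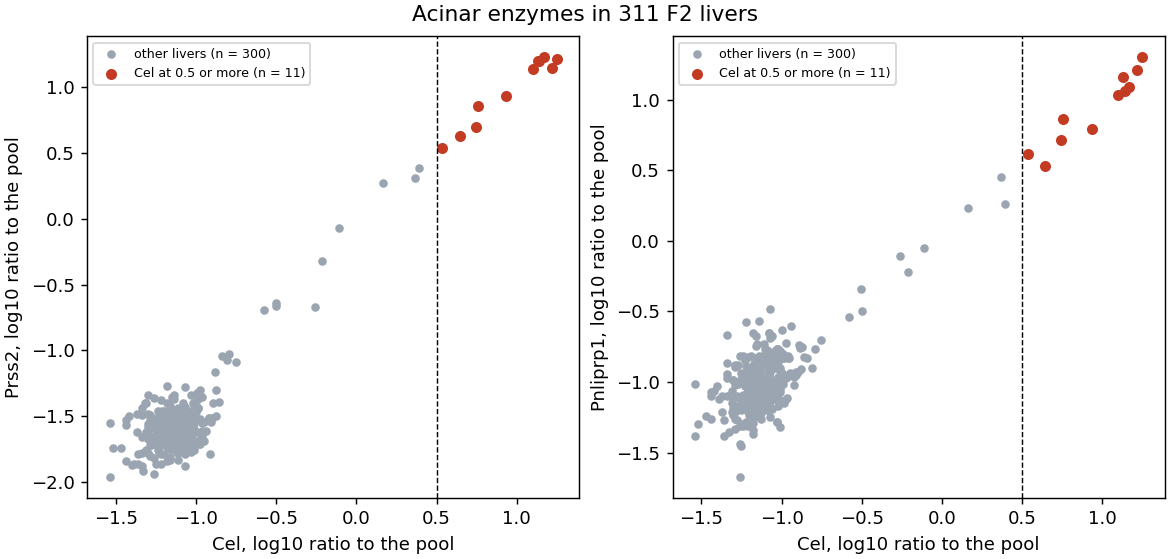
Log10 ratio to the pool of Prss2 (left) and Pnliprp1 (right) against that of Cel, 1 point per liver, with the 11 Cel-high livers in red, the 300 other livers in grey and the threshold of 0.5 dashed. Most livers form a cloud around a Cel value of -1.13, and a thin line of 11 intermediate livers leads from it to the Cel-high livers, in which Prss2 ran from 0.543 to 1.23.

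The acinar enzymes rose as a group. Of the 27 enzymes on the list, 10 were measured, Cel among them, and all of the 9 others were higher at an adjusted p under 0.05 (limma, Benjamini-Hochberg over the 11386 genes tested), where 1.73% of all genes were. Their median difference was 1.88 on the log10 scale, against -0.00534 over all genes. That the enzymes vary together in these livers was known when the livers were chosen, so their count is no independent evidence. Since the groups were set by Cel, each test asks whether a gene differs between livers with much and with little Cel. In RNA of whole tissue, more acinar cells and more RNA per acinar cell cannot be told apart.

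The trypsinogens, precursors of the protease that activates the other pancreatic enzymes, differed most. Prss1 stood at 0.616, 1.18 and 1.28 (lowest, median and highest) in the Cel-high livers and at -1.92, -1.68 and 0.378 in the others. The groups did not overlap, and the mean was 446-fold higher (95% interval 299 to 665; adjusted p = 1.98e-90, limma). Prss2 ran from 0.543 through 1.14 to 1.23 against -1.96 through -1.6 to 0.384, a 344-fold difference (232 to 509; adjusted p = 2.34e-88, limma). Try5 was 270-fold higher (186 to 392), again with no overlap. These genes are close paralogs, and probes of the same gene disagreed: other probes for Prss1 differed by 3.63-fold and 25.5-fold, and the other probe for Try5 showed no difference beyond its rounding, at 1-fold. How far each probe reads its neighbours' transcripts was not tested.

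The lipases differed over a wide range. Pnliprp1, a pancreatic lipase-related protein, stood at 0.53, 1.03 and 1.3 in the Cel-high livers and at -1.67, -1.02 and 0.452 in the others. The groups did not overlap and the means were 85.4-fold apart (60.9 to 120). Pnliprp2, a relative that also splits galactolipids, ran from 0.516 to 1.08 against -0.646 to 0.291, a 13.5-fold difference (11.5 to 15.7). Pla2g1b, the secreted pancreatic phospholipase A2, had the smallest difference of the 9 enzymes at 3.11-fold (2.88 to 3.36), and its lowest Cel-high liver, at 0.281, still exceeded the highest other liver, at 0.243.

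Among the remaining proteases, Ctrl, a chymotrypsin-like enzyme, was 75.1-fold higher (56.4 to 100) and Cpb1, carboxypeptidase B1, 12.8-fold higher (10.6 to 15.6), each without overlap. Amy2, pancreatic amylase under a symbol that the list does not hold, was 26.2-fold higher (20.5 to 33.4), with 10 of 11 Cel-high livers above every other liver. Amy1, the salivary and hepatic amylase, was 3.06-fold higher (2.7 to 3.46). The 2 amylases are near-identical, so the share of each in these values is uncertain.

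Cela2a, a chymotrypsin-like elastase, broke the pattern within the 11 livers. In 7 of them it stood between 0.709 and 1.17, but in F2 185 it was -0.759, in F2 157 -0.658, in F2 152 -0.345 and in F2 174 -0.321. No Cel-high liver lay in the gap of 1.03 between these sets, a 10.7-fold step. Prss2 in the 4 low livers spanned 0.543 to 1.2, nearly the whole range of the 11, so low Cela2a went with low Prss2 in F2 157 and F2 185 and with high Prss2 in F2 152 and F2 174. All of the 4 were nevertheless above the median of the other livers, -1.08. The same contrast appeared just below the threshold: F2 123, F2 169 and F2 168, with Prss2 at 0.384, 0.313 and 0.27, had Cela2a at -0.911, -0.896 and -1.22, whereas F2 160, with Prss2 at only -0.317, had Cela2a at -0.152. Over all 11 livers Cela2a was 30.9-fold higher (23.2 to 41.1; adjusted p = 3.4e-68, limma). Its SD was 0.764 in the Cel-high livers and 0.154 in the others. The fit takes 1 variance for both groups, so this interval is too narrow for the spread among the 11. The gap was noticed in the data and carries no test, and what separates the sets was not tested.

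**Figure D2:**
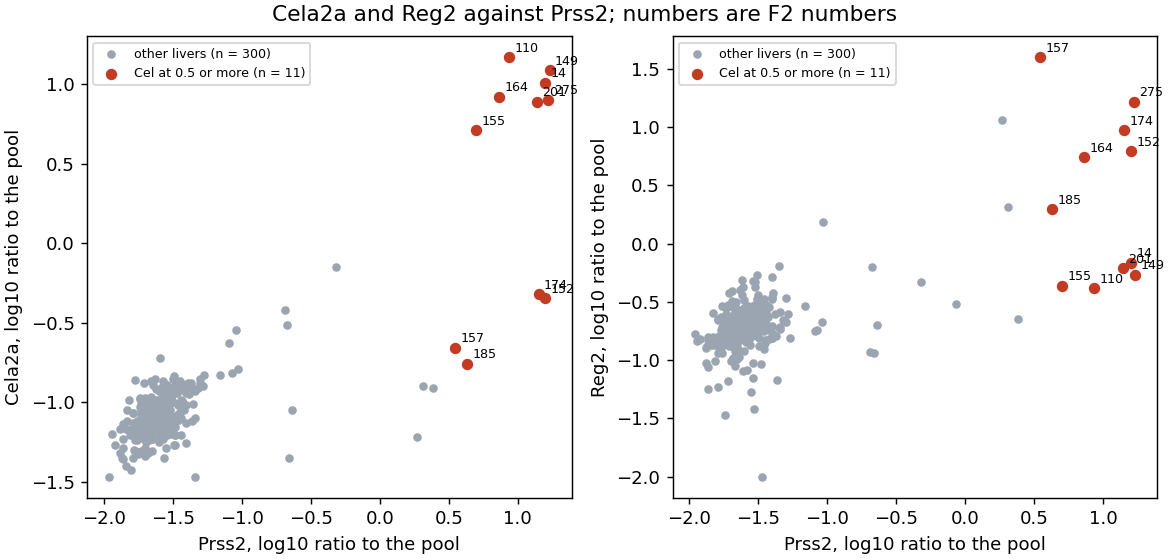
Log10 ratio to the pool of Cela2a (left) and Reg2 (right) against that of Prss2, 1 point per liver, with the 11 Cel-high livers in red and named by F2 number and the 300 other livers in grey. In the left panel 4 Cel-high livers lie between -0.759 and -0.321 and 7 between 0.709 and 1.17, and in the right panel 5 lie between -0.383 and -0.162 and 6 between 0.294 and 1.6.

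Of the other secretory proteins of acinar cells, 20 of the 27 on the list were measured and 13 were higher and none lower, against 1.73% of all genes higher, with a median difference of 0.324 over the 20. Reg1, a lectin-like protein abundant in pancreatic juice, stood at 0.723, 1.05 and 1.36 in the Cel-high livers against -1.88, -1.36 and 0.621, with no overlap and a 216-fold difference (151 to 307). Cuzd1, a zymogen granule membrane protein, was 94.0-fold higher (64.1 to 138). Klk1, tissue kallikrein, was 43.6-fold higher (33.1 to 57.6) and Klk1b5, a near-identical neighbour, 6.89-fold (6.00 to 7.90). Dmbt1, a mucin-like scavenger protein, was 41.8-fold higher (23.8 to 73.4), and Spink1, the secreted trypsin inhibitor, 11.9-fold (6.87 to 20.6). For Dmbt1 and Spink1, 7 of the 11 livers exceeded every other liver. Cckar, the receptor through which cholecystokinin triggers enzyme release, was 10.5-fold higher (8.72 to 12.5) without overlap. Smaller differences were found for Serpini2 (4.80-fold), Reg3a (2.56-fold), Reg3d (2.36-fold), the stress protein Nupr1 (1.88-fold), Aqp12, an acinar aquaporin (1.82-fold), and Itln1 (1.12-fold). The 7 genes that did not pass were Gp2, Dnase1, Bcat1, Gamt, Aqp8, Slc39a5 and Rap1gap. Gp2, the major granule membrane glycoprotein of acinar cells, gave 1.01-fold (0.957 to 1.07), and its values in the Cel-high livers spanned only -0.0544 to 0.0746.

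Reg2, an islet and acinar regeneration protein, differed among the 11 livers more than its relative Reg1. F2 110 (-0.383), F2 155 (-0.361), F2 149 (-0.266), F2 201 (-0.209) and F2 14 (-0.162) were low. F2 185 (0.294), F2 164 (0.744), F2 152 (0.792), F2 174 (0.976), F2 275 (1.22) and F2 157 (1.6) were high. The 4 livers low for Cela2a were all in the set high for Reg2. This was seen after the values were known and is given as a count only. All 11 were above the other livers' median of -0.718, and the mean was 12.5-fold higher (8.69 to 17.9; adjusted p = 2.11e-31, limma).

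The transcription factors of acinar cells were measured with less contrast. Ptf1a ran from 0.189 through 0.583 to 0.863 in the Cel-high livers against -0.696 through -0.0698 to 0.389, with 9 of 11 above every other liver and a 4.19-fold difference (3.50 to 5.02; adjusted p = 9.58e-39, limma). Pdx1, which specifies the pancreas and acts in islets and duodenum, was 1.12-fold higher (1.05 to 1.19; adjusted p = 0.0262, limma), a call that was lost on leaving out F2 14, F2 110, F2 174 or F2 275. The other 7 of the 9 measured did not pass, among them Rbpjl at 0.956-fold (0.899 to 1.02), the acinar subunit of the PTF1 complex, and Bhlha15 at 0.974-fold (0.927 to 1.02), which shapes the secretory apparatus. None of 22 genes of the general secretory machinery passed, where 1.73% of all genes were higher and 0.0703% lower. Examples are the chaperone Pdia3 and the protein disposal factor Derl3. Derl3 stood at 1.74-fold (1.13 to 2.68; adjusted p = 0.362, limma) and Pdia3 at 1.51-fold (1.14 to 2.01; adjusted p = 0.186, limma). Hepatocytes, which are secretory cells themselves, also express these genes.

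**Figure D3:**
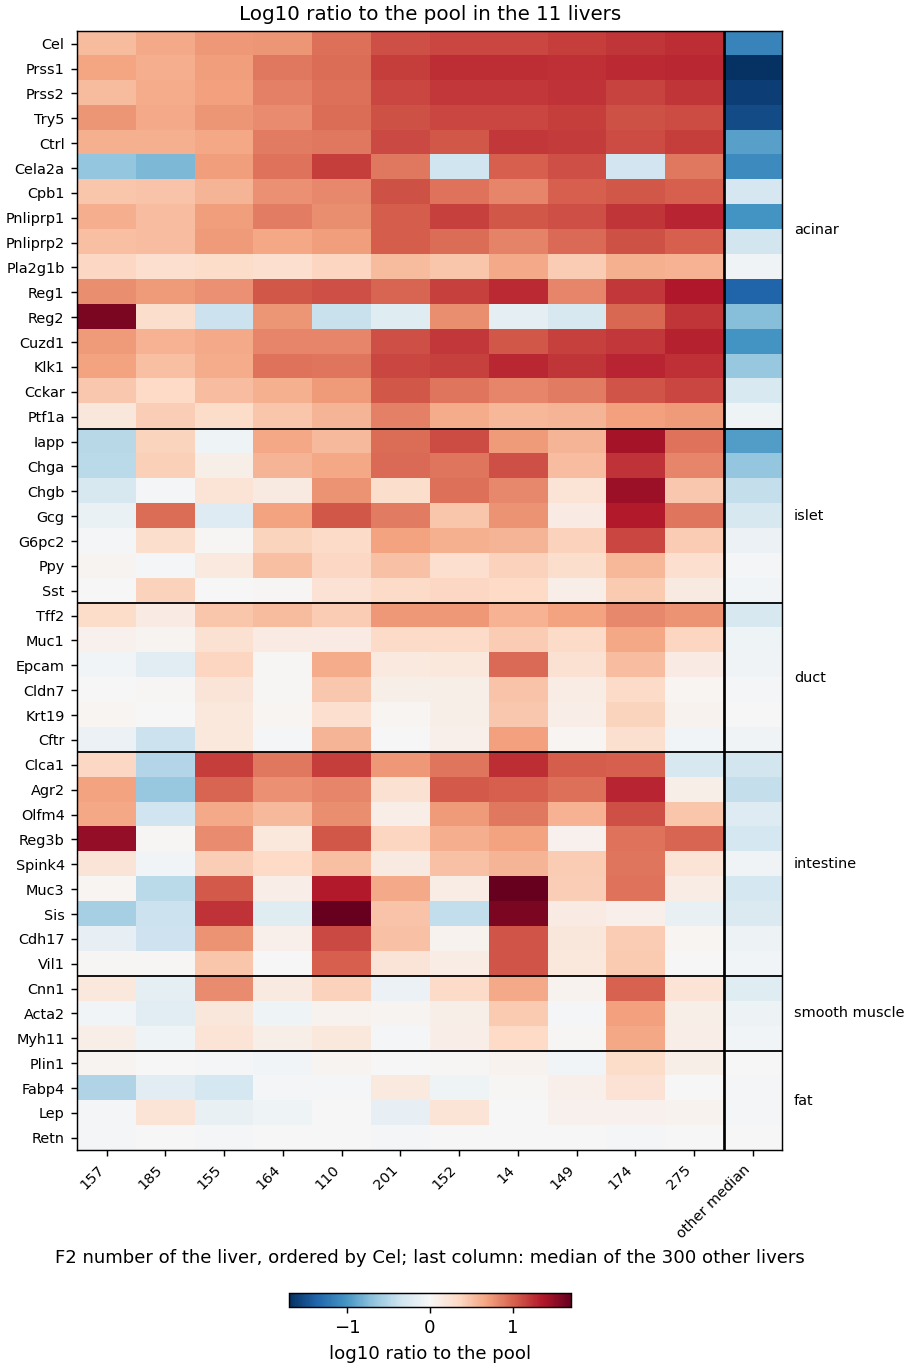
Log10 ratio to the pool of 45 genes (rows, grouped as acinar, islet, duct, intestine, smooth muscle and fat) in the 11 Cel-high livers (columns, by F2 number, ordered by Cel), with the median of the 300 other livers in the last column. Most acinar rows are deeper at the right than at the left, though not in strict order, and Cela2a and Reg2 depart from this. For example, Reg1 was 0.831 in F2 149 and Ptf1a was highest in F2 201, at 0.863. F2 14, F2 110 and F2 155 stand out for Sis and F2 174 for the islet and smooth muscle rows. Olfm4, Spink4 and Muc3, drawn with the intestine, are in no list.

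Islet genes rose as well. Of 31 measured, 18 were higher and none lower, against 1.73% of all genes, with a median difference of 0.146. Iapp, the amyloid peptide co-secreted with insulin by beta cells, stood at -0.472, 0.651 and 1.42 in the Cel-high livers and at -1.44, -0.946 and 0.203 in the others. In 9 of 11 it exceeded every other liver, and the mean was 36.5-fold higher (27.7 to 48.1; adjusted p = 1.39e-75, limma). Gcg, glucagon of alpha cells, ran from -0.222 through 0.762 to 1.35 against -0.703 through -0.267 to 0.617, a 7.61-fold difference (5.96 to 9.72), with 7 of 11 above every other liver. Ppy, pancreatic polypeptide, was 2.08-fold higher (1.92 to 2.25), and Sst, somatostatin of delta cells, 1.71-fold (1.43 to 2.05). The granule proteins Chga (18.6-fold, 13.7 to 25.3) and Chgb (7.36-fold, 5.68 to 9.53), which endocrine cells of the gut also make, rose too. Only 2 of 11 livers for Chga and 1 of 11 for Chgb exceeded every other liver, the highest of which stood at 0.973 and 1.41. The beta-cell glucose-6-phosphatase G6pc2 was also higher (3.47-fold, 3.08 to 3.92). Scg2, Scg3, Scg5, Scgn, Cpe, Pyy, Cltrn, Pax6, Ghrl, Ptprn and Pcsk1 rose by between 1.18-fold and 2.25-fold. The transcription factors Nkx6-1, Nkx2-2, Isl1, Mafa, Pax4, Rfx6 and Insm1 did not pass. Insulin itself, Ins1 and Ins2, was not analysed here.

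The islet genes varied among the 11 livers. F2 174 had the highest value of the 11 for Iapp (1.42), Chga (1.23), Chgb (1.45), Gcg (1.35), G6pc2 (1.13) and Scg3 (1.02), although its Prss2, at 1.15, was not the highest. F2 157, with the lowest Prss2 of the 11, had Iapp at -0.472, Chga at -0.46 and Gcg at -0.114. F2 155 had Gcg at -0.222 and Iapp at -0.0783 with Prss2 at 0.7, while F2 185 had Gcg at 0.948 with Prss2 at only 0.631. F2 123 and F2 169, just below the threshold, had Iapp at -0.977 and -0.453. The mean over the islet list ran from -0.0626 to 0.533 in the Cel-high livers and from -0.181 to 0.0926 in the others, and 9 of 11 exceeded every other liver.

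Over the 11 livers, 8 pairs of genes were compared by correlation. They were picked after the values were seen, so r and rho are a description with no test, and all are log ratios against the same pool. Prss2 went with Pnliprp1 at r = 0.939 (rho = 0.873), with Tff2 at 0.878 (0.736), with Chga at 0.836 (0.6) and with Iapp at 0.818 (0.636). Without the 2 livers farthest from the median of Prss2 these r were 0.893, 0.778, 0.739 and 0.719. Against Clca1, Agr2 and Cnn1, genes of the mucosa and smooth muscle taken up below, Prss2 gave r = 0.306, 0.324 and 0.154 (rho = 0.291, 0.336 and 0.145), and -0.345, -0.159 and -0.252 without 2 livers. Clca1 and Agr2 gave r = 0.878 with each other (rho = 0.764). Without F2 185 and F2 275, the 2 livers farthest from the median of Clca1, r was 0.514, so the value rests largely on them.

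Some duct genes rose. Of 20 measured, 8 were higher and none lower, against 1.73% of all genes, with a median difference of 0.101. Tff2, a trefoil peptide of mucous cells in stomach, duodenum and pancreatic duct, differed most: it ran from 0.138 through 0.592 to 0.82 against -0.556 through -0.272 to 1.28, a 6.80-fold difference (5.64 to 8.20; adjusted p = 1.54e-55, limma). All 11 Cel-high livers were above the other livers' median, yet no Cel-high liver exceeded the highest other one. Muc1, a membrane mucin of duct and gut epithelium, was 2.13-fold higher (1.80 to 2.52), Epcam, the epithelial adhesion molecule, 2.09-fold (1.71 to 2.55), and Krt19, a keratin of ducts and gut, 1.43-fold (1.32 to 1.55). Cldn7, Kcne3, Slc26a3 and Ambp rose by 1.54-, 1.47-, 1.35- and 1.18-fold. Ambp was highest in F2 157, at 0.346, where the acute phase gene Orm2 stood at 1.13. Whether the Ambp transcripts came from duct cells or from hepatocytes was not tested. Slc26a3 and Ambp had adjusted p of 0.0445 and 0.0438 (limma) and lost the call on leaving out any of 5 or 7 livers, respectively. Cftr, the chloride channel that drives duct secretion, gave 1.44-fold (1.16 to 1.79; adjusted p = 0.0551, limma) and did not pass. Nor did Muc6, Onecut2, Slc4a4, Tff1, Prom1, Cldn4, Aqp5, Aqp1, Tspan8, Bicc1 or Pkhd1.

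The duct genes did not share an order of livers. F2 14 and F2 110 had the highest Cftr (0.692 and 0.58), Epcam (0.965 and 0.636) and Cldn7 (0.49 and 0.452) of the 11, and F2 14 and F2 174 the highest Krt19 (0.452 and 0.374). F2 185 had Cftr at -0.37 and Epcam at -0.18, below the pool, with Krt19 at -0.00751. Tff2 had another order: it was 0.438 in F2 110 and 0.477 in F2 155, below its median, and 0.763 in F2 275 and 0.736 in F2 201. Muc1 was 0.135 in F2 110 and highest in F2 174, at 0.654. Most of these genes are expressed by gut epithelium as well, so this list does not separate the tissues. The mean over the list ran from -0.0808 to 0.259 in the Cel-high livers against -0.149 to 0.146 in the others, and 3 of 11 exceeded every other liver.

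Genes of the small intestine rose in 14 of 21 measured, against 1.73% of all genes, with none lower and a median difference of 0.145. The count was 9 without the 3 livers high for Sis, described below, and 7 where a 1.5-fold difference was also required. Agr2, a disulphide isomerase of goblet cells, ran from -0.641 through 0.827 to 1.3 against -1.7 through -0.407 to 1.47, an 11.8-fold difference (8.45 to 16.5; adjusted p = 1.72e-34, limma). Clca1, a secreted goblet-cell protein, ran from -0.503 through 0.914 to 1.25 against -2 through -0.312 to 0.685, a 10.9-fold difference (7.45 to 16.0), with 8 of 11 above every other liver. In F2 185 both were below the pool (Clca1 -0.503 and Agr2 -0.641), although acinar enzymes were high there, with Prss1 at 0.616. Reg3b, an antibacterial lectin of gut epithelium and of inflamed pancreas, was 9.26-fold higher (6.77 to 12.7) and highest in F2 157 at 1.49. Reg3g (3.05-fold), Cdh17 (2.66-fold), Vil1, villin of the brush border (2.36-fold), Slc5a1, Guca2b, Guca2a, Lct, Rbp2, Tff3 and Itln1 were also higher. Fabp2 and Apoa4, abundant in enterocytes, did not pass, at 0.972-fold and with an adjusted p of 1 (limma) for Apoa4. Hepatocytes also make Apoa4. Nor did Cdx1, Alpi, Dpp4, Anpep or Fabp6 pass.

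Sis, the sucrase-isomaltase of the enterocyte brush border, was high in few livers. It was 1.86 in F2 110, 1.6 in F2 14 and 1.23 in F2 155, and between -0.558 and 0.487 in the other 8, with a gap of 0.747. The same 3 livers had the highest Muc3 (1.35, 1.77 and 1.04), Cdh17 (1.12, 1.07 and 0.759) and Slc7a9 (1.09, 1.32 and 0.775), an amino acid carrier of the brush border. Over the 11 livers Sis was 5.01-fold higher (2.63 to 9.54; adjusted p = 0.000126, limma). Without those 3 livers, which Sis itself picked out, the log10 difference of Sis was 0.24, given with no test. Those of Clca1 (0.853), Agr2 (0.967) and Reg3b (0.893) still passed. A further Sis probe gave 1.34-fold. The 3 livers had Prss2 at 0.7 to 1.2, within the range of the rest.

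The 30 genes with the largest differences outside the pancreatic and fat lists were a mixed set, of which examples are given without a theme. They included Muc3 (6.61-fold, 4.69 to 9.30), Olfm4, a marker of crypt stem cells in human gut (5.86-fold, 4.69 to 7.34), Spink4 of goblet cells (2.81-fold, 2.45 to 3.22), Muc4 (2.47-fold), Muc13 (2.30-fold) and Defa3, a Paneth cell defensin (2.05-fold, 1.73 to 2.42). The epithelial splicing factor Esrp1 (2.46-fold), the prostaglandin receptor Ptger3 (2.06-fold, 7 of 11 above every other liver), the splicing-associated Srrm2 (2.11-fold), the neutrophil protease Prtn3 (2.42-fold) and asparagine synthetase Asns (2.08-fold) were also in this set, as were Amy2 and Klk1b5. Defa3 reached 1.32 in F2 110 and 0.608 in F2 14. Without the 3 livers high for Sis its difference was 0.104 (adjusted p = 0.117, limma). In all, 197 genes were higher, 106 of them by at least 1.5-fold (0.931% of those tested), 66 by 2-fold and 20 by 10-fold. Of the 197, 70 were in a list and 127 in none. In 13 genes (0.114%) the groups did not overlap: Aqp12, Cckar, Cpb1, Ctrl, Cuzd1, Klk1, Pla2g1b, Pnliprp1, Pnliprp2, Prss1, Prss2, Reg1 and Try5. All of the 13 are acinar list members.

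**Figure D4:**
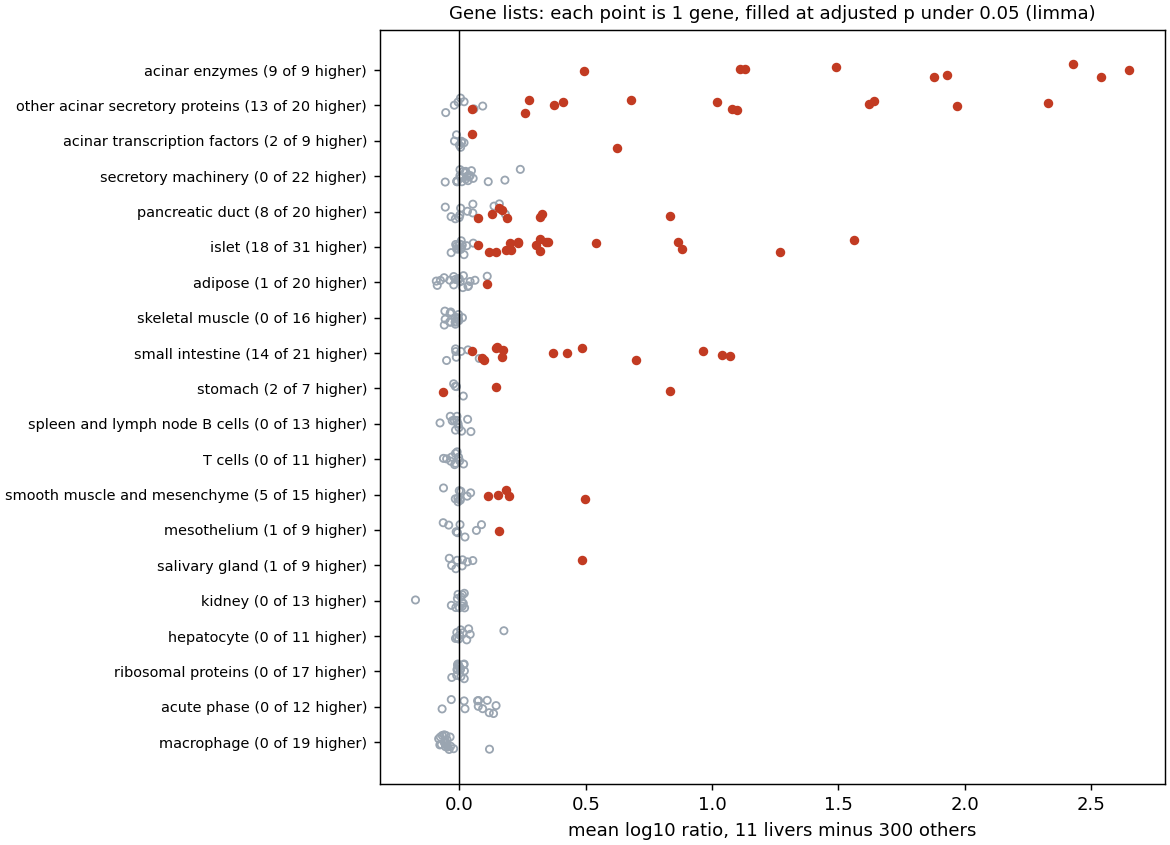
Difference in mean log10 ratio, Cel-high minus other livers, with 1 point per gene and 1 row per gene list, filled where the adjusted p was under 0.05 (limma). The acinar rows reach 2.65, and the islet, duct and small intestine rows have filled points up to 1.56, 0.83 and 1.07, whereas only Nnat is filled among the 20 adipose genes and none among skeletal muscle, kidney, lymphocyte, hepatocyte or macrophage genes.

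Smooth muscle and mesenchyme genes rose in 5 of 15, against 1.73% of all genes: Cnn1 (3.14-fold, 2.22 to 4.44), Myh11 (1.58-fold), Acta2 (1.53-fold), Clec3b (1.42-fold) and Actg2 (1.30-fold). They mark contractile cells of vessels and the gut wall, or, for Clec3b, fibroblasts. F2 174 was the highest liver for each, with Cnn1 at 1, Acta2 at 0.7 and Myh11 at 0.653, and without it Acta2 and Clec3b did not pass, which left 3 of 15. Acta2 also did not pass without F2 14. Cnn1 was next highest in F2 155, at 0.801, and F2 14, at 0.644. Dcn, Col1a1, Lum and the other 7 genes did not pass.

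Few fat genes were called. Of 20 measured, against 1.73% of all genes, only Nnat was higher, at 1.28-fold (1.17 to 1.41; adjusted p = 1.94e-05, limma), and none was lower. Nnat, neuronatin, is expressed in adipocytes and in endocrine cells alike. Its highest value was 0.527 in F2 174, and without that liver it did not pass, so that 0 of 20 remained. The count was 3 of 20 with Cel at 1 or more, 2 with Cel at 0.3 or more and 2 without the 3 livers high for Sis. Plin1, the coat protein of adipocyte lipid droplets, stood at -0.0474 to 0.307 in the Cel-high livers against -0.359 to 0.216, at 1.08-fold (0.996 to 1.17; adjusted p = 0.758, limma). Only F2 174 exceeded every other liver. Lep (1.04-fold, 0.911 to 1.18), Retn (0.998-fold, 0.867 to 1.15) and Fabp4 (0.949-fold, 0.723 to 1.25) did not pass either. The median difference over the list was -0.00197, against -0.00534 over all genes, and the list mean ran from -0.127 to 0.11 in the Cel-high and from -0.153 to 0.0749 in the other livers. The intervals allow a shift of up to 1.18-fold for Lep and 1.25-fold for Fabp4. The other 8 of the 28 listed genes were not analysed here.

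Lists of other tissues gave few or no calls. None of 16 skeletal muscle, 13 kidney, 13 B cell, 11 T cell or 19 macrophage genes passed. Nor did any of 17 ribosomal, 12 acute phase, 11 hepatocyte and 2 Y-linked genes. Over all genes 1.73% were higher and 0.0703% lower, shares at which lists this short hold few or no calls. The single calls were Krt19 of 9 mesothelium genes and Amy1 of 9 salivary gland genes. Krt19 and Tff2 are also on the duct list and Ghrl on the islet list, so these calls are not new. Of 7 stomach genes Tff2 and Ghrl were higher, and Atp4b, a subunit of the acid pump, lower at 0.859-fold (0.793 to 0.931; adjusted p = 0.0148, limma). The hepatocyte list mean ran from -0.118 to 0.113 in the Cel-high livers and from -0.21 to 0.0844 in the others, so no lower level of hepatocyte transcripts was detected. An adjusted p above the threshold does not show that levels were equal. The largest acute phase difference was Saa3 at 1.40-fold (0.964 to 2.02), and Orm2 reached 1.13 in F2 157 alone.

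Few genes were lower. Rbm39, HEG1, Atp4b, Pfas, Afap1, Snx29, Abhd16a and Lsp1 passed in that direction (0.0703% of those tested), by at most 1.25-fold. The largest was Rbm39, a splicing factor, which stood at -0.552, -0.0582 and 0.0655 in the Cel-high livers against -0.306, 0.000154 and 0.219, with its lowest value in F2 110. Every one of the 8 ranges overlapped. The count was unstable: it was 4 without F2 14, 14 without F2 155 and 15 without F2 157. At an unadjusted p under 0.05 (limma), 401 of the 11386 genes tested were lower. Without adjustment many such calls arise by chance, so this count does not show a further set of lower genes.

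The rule looked only at the threshold, so Cel was also followed as a gradient within the 300 other livers. There 63 genes rose with Cel (0.553% of those tested) and 19 fell (0.167%), at an adjusted p under 0.05 (limma slope). Slopes are in log10 ratio per unit of log10 Cel. They were 1.08 for Prss1, 1.06 for Prss2, 1.03 for Try5, 0.946 for Reg1, 0.863 for Ctrl, 0.812 for Pnliprp1 and 0.68 for Amy2. The trypsinogens and Reg1 thus rose nearly in step with Cel over the 300 livers. Their slopes were lower in the 289 livers with Cel under -0.8, given below. Cela2a, at 0.314, and Cpb1, at 0.319, rose less steeply. Iapp (0.338), Gcg (0.175) and Chga (0.199) of the islets, Tff2 (0.243), Clca1 (0.39) and Agr2 (0.289) also rose. Krt19 (0.0165), Epcam (-0.0203), Vil1 (0.00486), Acta2 (0.0681), Nnat (0.0367) and Plin1 (0.0255) did not pass.

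When the gradient was limited to the 289 livers with Cel under -0.8, a limit set after the values were seen, 50 genes rose (0.439%) and 17 fell (0.149%). There the slope of Ctrl was 0.944, of Pnliprp1 0.554, of Reg1 0.524, of Amy2 0.513, of Try5 0.492, of Cela2a 0.482, of Iapp 0.459, of Prss2 0.39 and of Prss1 0.303, all past the threshold. In these livers Prss2 reached down to -1.96, near the lower limit of -2 at which ratios end. Other acinar genes did not pass there, among them Klk1 (0.263; adjusted p = 0.0678, limma), Cuzd1 (0.25), Cckar (0.0384), Pla2g1b (0.0356) and Dmbt1 (-0.0307). These livers are the comparison group of the first test, so the fits are not independent and are only set side by side.

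**Figure D5:**
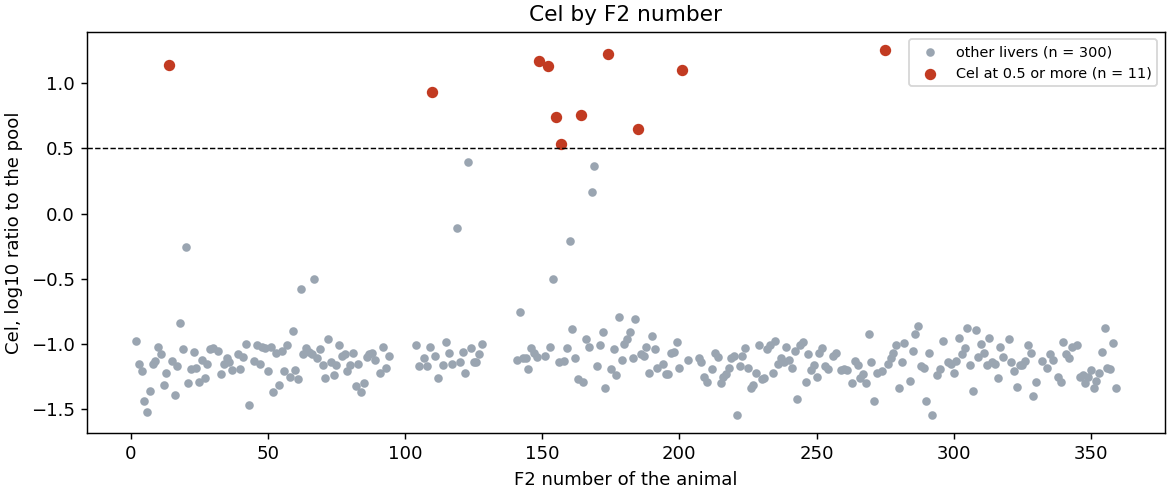
Log10 ratio of Cel against the F2 number of the animal, 1 point per liver, with the 11 Cel-high livers in red, the 300 others in grey and the threshold dashed. Between F2 110 and F2 201 lie 9 of the 11 Cel-high livers and 8 of the 11 livers with Cel between -0.8 and 0.5.

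The Cel-high livers did not stand apart in array spread: the SD over all probes averaged 0.104 against 0.107 (permutation test, p = 0.769). Missing values averaged 35.5 per array against 179 (permutation test, p = 0.0941). They ran from 1 to 101 in the Cel-high livers, while the others had a median of 80, an SD of 328 and a highest value of 2890. With so wide a spread the test of means could miss a shift to fewer missing values. Of the 11, 6 had the Y-linked gene Eif2s3y below -1 and 5 above 0, against 147 and 148 of the others, so neither class prevailed, and 5 others lay between. The mean F2 number was 158 against 183 (permutation test, p = 0.443). The numbers were nevertheless bunched: 9 of the 76 livers numbered 110 to 201 were Cel-high, against 2 of the other 235. This window was drawn after the values were seen and carries no test, and the labels do not say whether F2 numbers follow birth, dissection or extraction. Of 4 livers with raised skeletal muscle genes (list mean of 0.5 or more), none was Cel-high. Whether the acinar RNA came from cells within the liver or from tissue collected with it was not tested.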

How the data were processed

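Two-colour arrays of 311 F2 livers were read, 1 array per animal, each against the common pool. The deposited values are log10 ratios of liver over pool made by the authors; the labels give the dyes but neither base nor direction. Both were read from the values. The base rests on the slope of probe means on variances, which was -1.15, where log10 predicts -1.15, log2 -0.347 and natural log -0.5. For the direction, the 500 most variable probes had a median mean ratio of 1.02 (1.34 with the sign turned). This second check does not single out log10, since it gave 0.979 for log2 and 0.977 for natural log. Background correction and normalization are not given in the sources used here. Values end at -2 and 2, and 0.745% are missing. The scale of the deposited table was kept.

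Of 23388 probes, 13645 name 1 gene, 48 several and 9695 none in the platform annotation; symbols were updated by RefSeq identifiers, and 681 probes kept the platform's name. Genes were read through the probe with fewest missing values, first in the file at ties, where it was measured on at least 95% of arrays, which gave 11387 genes. Cel was set aside and 11386 genes were tested with limma 3.58.1 (R 4.3.3; lmFit, eBayes) and Benjamini-Hochberg adjustment at 0.05. Folds are antilogs of differences in mean log10 ratio, with 95% intervals from the fit. The fit takes 1 variance per gene for both groups, set mostly by the 300 other livers. Where the Cel-high livers spread more, intervals are too narrow and p-values too small. Examples are Reg2 (SD 0.71 against 0.231), Iapp (0.532 against 0.177) and Gcg (0.5 against 0.155). For some genes, such as Spink1 (0.262 against 0.401), the Cel-high livers spread less. In simulated data the fit recovered 64% of genes changed 1.25-fold, 94% at 1.5-fold, 98% at 2-fold and 100% at 4-fold, with 6 false calls among 11386 genes. The simulation drew genes independently and gave both groups the SD of the other livers. It therefore does not cover genes that vary together or spread more among the Cel-high livers, such as G6pc2 (SD 0.32 against 0.0658). Permutation tests of array measures were two-sided with 100000 resamples. Arrays carry no read depth; their number limits precision, chiefly the 11 on one side. 1 sample, whose title and source name differ in F2 number, was read by its title.

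The livers, the 21 gene lists and the tests were chosen with earlier results of these data known. Genes named were members of the pancreatic and fat lists, and the 30 highest and up to 15 lowest other called genes. Up to 6 of each other list, 15 by correlation with Cel, and Y-linked genes were named as well. Members of a list that were called are named beyond this, as are some that did not pass. Alternatives tried were centring, scaling, probe choice, missing-value limits, other Cel limits, covariates, subsets and leaving out arrays.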

Additional observations from a re-analysis of the deposited data

Results flagged for a closer look

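The comparison above covers probes that name a gene. Among the 9528 probes that name none and passed the same limit on missing values, 115 were higher in the Cel-high livers and 6 lower (limma, adjusted p under 0.05), of which 12 were higher by at least 10-fold and the largest by 355-fold. In 8 of these probes the 11 Cel-high livers did not overlap with the 300 others. Among the 11386 named genes, 197 were higher and 8 lower, 20 were higher by at least 10-fold and 13 did not overlap. The unnamed probes were thus not called more often than the named genes. They are not used in the comparison, and the transcripts behind them are unnamed here.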

How the results depend on the processing

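The acinar enzymes tested were all higher under every alternative that was run, 7 of 7 with probes measured on every array and 9 of 9 otherwise. Counts that moved by more than 1.5 times are given by setting, against 197 genes higher, 8 lower, 8 duct, 18 islet, 1 fat, 14 intestine and 5 smooth muscle genes. With a 1.5-fold minimum they were 106 higher, 0 lower, 4 duct, 0 fat, 7 intestine and 3 smooth muscle. With probes measured on every array, which tests fewer genes, they were 90 higher, 5 lower, 5 other acinar (13 before), 2 duct, 8 islet, 0 fat, 8 intestine and 1 smooth muscle. With Cel at 0.3 or more, 24 were lower and 2 fat genes higher. With Cel at 1 or more, 13 were lower, 3 fat and 9 intestine genes higher. With Eif2s3y as a covariate, 20 were lower. In F2 numbers up to the median, 4 were lower, 0 fat and 3 smooth muscle genes higher. Above it, where only 2 Cel-high livers remain, 63 were higher, 4 lower, 2 duct, 11 islet, 4 intestine and 0 smooth muscle. With normal scores, 3 were lower, 0 fat and 3 smooth muscle genes higher. Without the 3 livers high for Sis, a setting added after seeing the data, 152 were higher, 21 lower, 2 fat, 9 intestine and 3 smooth muscle. Genes falling with Cel in the other livers numbered 12 with centred arrays, 29 with Eif2s3y and 8 with Cel under 0.3, against 19. Where no construction is named, the cause was not tested.

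Leaving out 1 Cel-high liver gave 150 to 202 genes higher, 4 to 15 lower, 6 to 8 duct, 17 to 18 islet, 0 to 1 fat, 11 to 14 intestine and 3 to 5 smooth muscle, with 9 enzymes and 13 other acinar genes each time; 150, 0 fat and 3 smooth muscle came without F2 174. Of 93 named genes followed, 50 kept their call throughout. Defa3 (-0.0454) and Abhd16a (0.000568) reversed in F2 numbers above the median. No paired analysis was possible because the labels give no groups and each F2 number occurs once. The precision is set by 11 livers against 300, and signal over background is not given by a table of ratios.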
